A study of Rattus norvegicus with 16 samples.

Results

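The pontine nuclei of rats after transection of their axons were compared with the contralateral nuclei of the same day, on days 10 and 37. Members were all arrays labelled for transection that had a contralateral partner: 4 of the 16 arrays of the series, namely day 10 lesion, day 10 contralateral, day 37 lesion and day 37 contralateral, with 1 array each. The study placed saline, lysolecithin (a lipid that strips myelin) or a transection on axons at a distance from their cell bodies, collected the nuclei on days 4, 10 and 37, and named the contralateral nuclei as its controls. The other arrays were 8 from the saline and lysolecithin pairs of days 10 and 37, 3 lesion-side arrays of day 4 and 1 healthy control. Strain, sex, age, the number of animals behind an array and the level of the cut were not given in the sources used here. Each group was a single array, so a difference within a pair had no replicate of its own. The p-values given at the end take their spread from how far the 2 days of each intervention differ, transection included. In tissue RNA, fewer cells of a type and less RNA per cell cannot be told apart.

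Pontine nuclei relay signals from the cerebral cortex to the cerebellum through long glutamatergic axons that enter the middle cerebellar peduncle, most of them after crossing the midline. A central neuron whose axon is cut can switch on the transcription factors Jun and Atf3, growth-associated genes and stress genes in its cell body, and can lower genes of synaptic transmission and neurofilaments. Whether that state lasts after the first weeks differs between types of neuron. The 2 pairs address which side differences were present on day 10, which of them were still there on day 37, and which appeared late.

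Signals are MAS5 intensities scaled by the authors on each array, and each has a detection call (Present, Marginal or Absent). A probe set was kept for comparison if 3 or more of the 16 arrays had it Present. This left 4413, standing for 2713 genes with 1 symbol. Differences are lesion minus contralateral on the log2(signal + 16) scale, so that folds of dim genes are understated. A probe set was called higher or lower when the difference was at least 2-fold and the brighter array had a Present call. Present calls covered 41.9% to 46.3% of probe sets on the 4 arrays. Intact RNA gives a low ratio of 3′ to 5′ beta-actin signal, and this ratio was 1.08 on the day 10 lesion array, 1.07 on its contralateral array and 1.07 on the day 37 lesion array. On the day 37 contralateral array it was 1.53, the second highest of the series, while the same ratio for GAPDH was low there, at 1.07 beside 1.10 on the day 37 lesion array. Of the 7 tested markers of projection neurons, all 7 were Present on each of the 4 arrays, as were all 16 oligodendrocyte and myelin genes. Both tested markers of choroid plexus and ependyma were without a Present call on 3 of these arrays. The lists held no gene that marks the pontine nuclei alone.

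On day 10 after transection 57 probe sets were called higher (1.29% of those tested) and 44 lower (0.997%), a split of 56.4% higher that became 71.1% (69 and 28) with quantile normalization. On day 37 the counts were 21 higher (0.476%) and 28 lower (0.634%). The same rule gave 38 higher (0.861%) and 31 lower (0.702%) in the lysolecithin pair of day 10, and 21 (0.476%) and 39 (0.884%) in that of day 37. In the saline pairs it gave 3 higher (0.068%) and 21 lower (0.476%) on day 10, and 55 (1.25%) and 20 (0.453%) on day 37. The day 10 transection pair thus held more calls than the saline pair of its day (2.29% against 0.544%), and the day 37 pair fewer (1.11% against 1.70%). In the lysolecithin pairs the share called in either direction was 1.56% on day 10 and 1.36% on day 37. The SD of the differences over all tested probe sets was 0.44 in the transection pair of day 10 and 0.33 in that of day 37, beside 0.29 and 0.35 in the saline pairs.

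**Figure D1:**
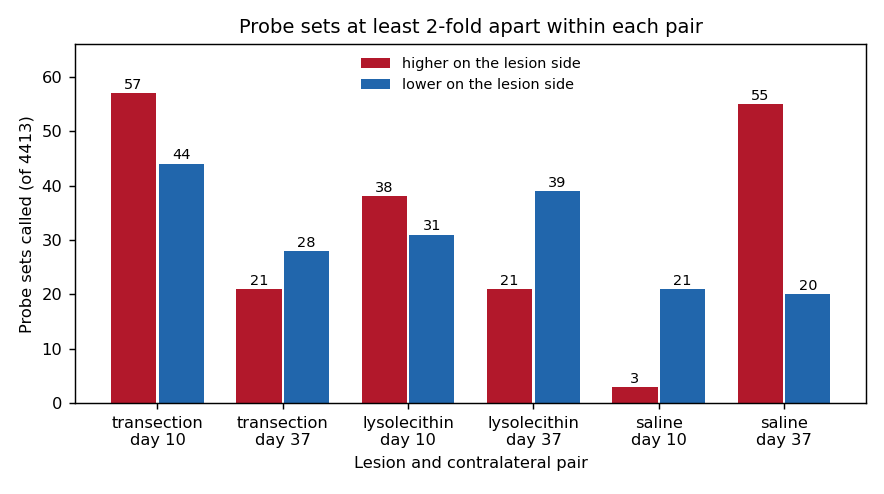
Number of probe sets, of 4413 tested, that were at least 2-fold higher (red) or lower (blue) on the lesion side than on the contralateral side, in each of the 6 pairs of arrays. Transection on day 10 has 57 higher and 44 lower, and transection on day 37 has 21 and 28, beside 55 and 20 for saline on day 37.

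Set side by side, the 2 days shared few calls. Persistent probe sets, called the same way on both days, numbered 4. Lost ones, called on day 10 and under 0.5 in log2 difference on day 37, numbered 76, of which 49 were higher on day 10 and 27 lower. Late ones, called on day 37 and under 0.5 on day 10, numbered 29, with 15 higher and 14 lower. Another 16 were called on day 10 and partly kept on day 37 (4 higher, 12 lower), 12 were called on day 37 after a smaller difference of the same sign (3 higher, 9 lower), and 7 pointed opposite ways. The saline pairs had 1 persistent, 17 lost and 58 late probe sets, and the lysolecithin pairs 3, 43 and 37.

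Of the 57 probe sets higher on day 10, 2 were called again on day 37, which is 3.51% of the day 10 calls. Over all tested probe sets 0.476% were called higher on day 37. The 2 made up 9.52% of the day 37 calls. The median difference of the 57 was 1.39 on day 10 and 0.14 on day 37. On day 37, 40 of the 57 still lay above 0, and 6 were at least 0.5 higher, a size reached by 5.37% of all tested probe sets. Of the 44 lower on day 10, 2 were called again (4.55% of the day 10 calls, 7.14% of the day 37 calls), beside 0.634% of all tested. The median of the 44 was -1.17 on day 10 and -0.31 on day 37. A larger number, 14 of the 44, were at least 0.5 lower on day 37, beside 5.91% of all tested. Read backwards, 5 of the 21 probe sets higher on day 37 were at least 0.5 higher on day 10 (8.11% of all tested) and 11 of the 28 lower were at least 0.5 lower (10.3%). Across all 4413 probe sets the differences of the 2 days had a Pearson correlation of 0.12 (Spearman 0.06) after transection, 0.00 after saline and -0.10 after lysolecithin. These correlations are over probe sets of single arrays and describe those arrays.

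**Figure D2:**
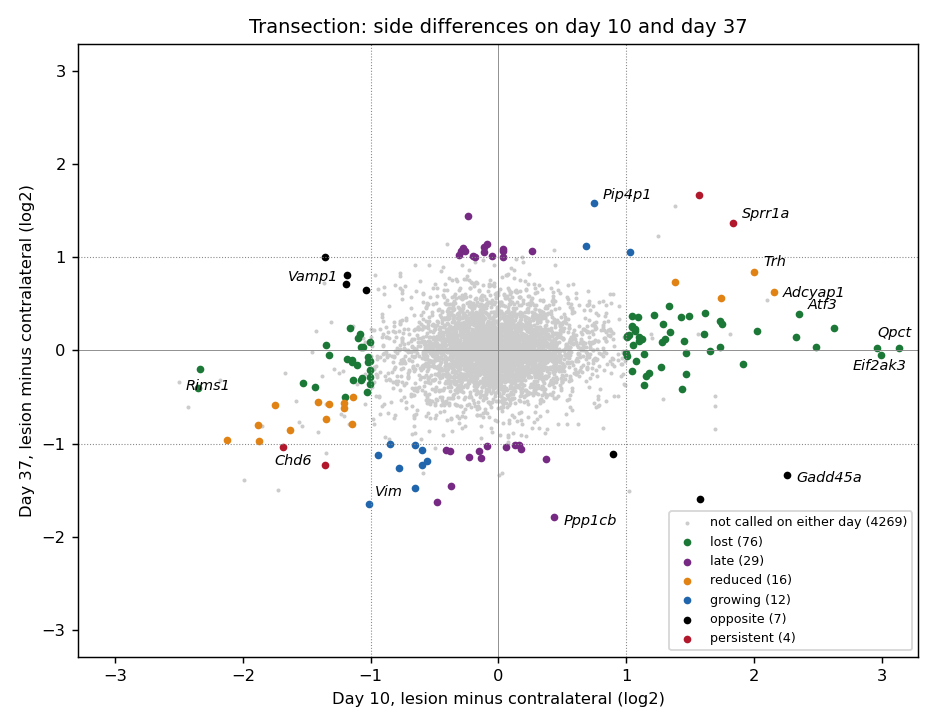
Lesion minus contralateral difference (log2) after transection on day 10 (x axis) and day 37 (y axis), 1 point for each of the 4413 tested probe sets, coloured by whether its call was lost, late, reduced, growing, opposite or persistent. The 76 lost probe sets (green) spread along the horizontal line and only 4 (red) are called the same way on both days.

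Genes were ranked by their brightest probe set, where it was over a signal of 200 on the brighter array. By size the highest day 10 calls were then Qpct and Eif2ak3, described below with their groups. Atf3 and the clock gene Bmal1 followed. Bmal1 had 203.4 against 27.6 (Absent) on day 10, where the contralateral value was the lowest of the 7 controls (median 200.2), and 229.5 against 207.0 on day 37. Genes of the axon injury response were among the calls. Atf3, a stress-induced transcription factor of injured neurons, had a signal of 2519.6 on the day 10 lesion array, against 480.9 on its contralateral array (5.10-fold). On day 37 it was 386.3 on the lesion side, against 291.8 contralaterally (1.31-fold). Jun, the partner factor of Atf3 in AP-1 complexes, was 1512.1 against 590.7 on day 10 (2.52-fold) and 699.5 against 499.0 on day 37 (1.39-fold). Both day 10 lesion values lay above all 7 control arrays of the series, which ranged from 210.8 to 480.9 for Atf3 and from 441.3 to 598.9 for Jun. On day 37 Atf3 was inside that range on the lesion side and Jun was above it.

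Gadd45a, a growth-arrest gene induced by DNA damage and stress, was measured by 4 tested probe sets. The brightest had 3488.4 on the day 10 lesion array against 846.7 contralaterally (4.06-fold) and 868.1 against 751.3 on day 37. All 4 were called higher on day 10, with differences of 1.44 to 2.63, and on day 37 they disagreed in sign, from -1.33 to 0.24. Gap43, a protein of growth cones, was 3640.7 against 1082.2 on day 10 (3.33-fold), and its 2 sides were nearly level on day 37, at 1378.5 against 1348.4. The neuronal endopeptidase Ecel1, first described as a damage-induced gene, had 2916.4 against 938.3 on day 10 (3.07-fold) and 770.7 against 580.6 on day 37. Each of these 3 genes was called only on day 10 by its brightest probe set.

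Stress genes of the unfolded protein response were called on the same day. Ddit3 (CHOP), a transcription factor induced by stress of the endoplasmic reticulum, was 2166.6 against 563.9 on day 10 (3.76-fold) and 573.2 against 636.6 on day 37. Eif2ak3 (PERK), a kinase that senses such stress, was 937.3 against 105.8 on day 10 and 415.8 against 409.1 on day 37. The contralateral value of day 10 was the lowest of the 7 controls for this probe set (105.8 to 546.4), and a dimmer Eif2ak3 probe set differed by 0.38 on day 10. Against the control median of 443.1, the day 10 lesion signal was therefore a smaller step than the 7.83-fold within the pair. Slc7a3, a transporter of cationic amino acids, was at least 3.06-fold higher on day 10, with 407.6 against 122.5 (not Present), and 176.8 against 154.7 on day 37.

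A promoter sequence is shown for the pair of genes among the day 10 calls with an AP-1 match and a role in this account, because AP-1 is the complex that Jun forms. The windows are RefSeq promoters of build GRCr8, 250 bases before to 50 after the gene start, and 36 of the 43 genes called higher on day 10 were matched to one. Capitals mark matches, on either strand, to the AP-1 site TGANTCA, the ATF/CREB site TGACGTCA or the core TGATGNAA of the composite site of CHOP and ATF4. No 2 matches overlapped.
Ddit3, chr7:65001445-65001744, plus strand: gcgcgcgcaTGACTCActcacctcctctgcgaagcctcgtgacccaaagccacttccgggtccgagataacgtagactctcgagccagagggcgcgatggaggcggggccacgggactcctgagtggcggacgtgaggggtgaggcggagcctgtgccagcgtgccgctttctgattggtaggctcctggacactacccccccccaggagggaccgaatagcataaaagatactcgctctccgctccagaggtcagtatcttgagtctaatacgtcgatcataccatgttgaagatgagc
Sprr1a, chr2:180752576-180752875, minus strand: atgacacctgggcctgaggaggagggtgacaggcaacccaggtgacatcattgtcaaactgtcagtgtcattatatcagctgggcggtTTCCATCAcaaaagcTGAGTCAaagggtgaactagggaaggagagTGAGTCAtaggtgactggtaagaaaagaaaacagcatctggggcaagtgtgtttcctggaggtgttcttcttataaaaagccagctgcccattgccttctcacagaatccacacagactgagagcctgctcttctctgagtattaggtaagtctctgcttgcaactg
The Ddit3 window holds 1 AP-1 match, whose first base is at -241 with the gene start as 0. The Sprr1a window holds a pair of AP-1 matches at -147 and -117 and a match to the CHOP and ATF4 core on the other strand at -162. The AP-1 letters were found in 4 of the 36 windows (11.1%) and in 7.33% of all 27457 promoters in the table, the ATF/CREB letters in 2 (5.56%, against 1.91% of all) and the CHOP and ATF4 core in 1 (2.78%, against 3.82%). A match describes letters in this window and no binding.

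Sprr1a, a small proline-rich protein found in regenerating axons, was the 1 persistent gene that was higher. Its probe set rc_AA891911_at had 1822.2 on the day 10 lesion array, against 497.9 contralaterally (3.58-fold). On day 37 the lesion side had 478.2 and the contralateral side 175.5 (not Present), at least 2.58-fold apart. The day 37 lesion value lay within the range of the 7 controls, 175.5 to 497.9, and its contralateral partner was the lowest of them. A brighter Sprr1a probe set was 0.84 higher on day 10 and 0.20 on day 37, under the threshold on both days. Chd6, a chromatin remodeller, was the 1 persistent named gene that was lower, with 70.2 (Absent) against 205.4 on day 10 and 142.4 against 355.0 on day 37. The day 37 contralateral value was the highest of the 7 controls (51.1 to 355.0), the lesion value lay within them, and against their median it differed by -0.39. In the lysolecithin pair of day 10 Chd6 differed the other way, by 1.65. The other 2 persistent probe sets had no gene symbol.

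Of the 4 probe sets that were higher on day 10 and partly kept on day 37, 1 was of Trh, 2 were of Adcyap1 and 1 had no gene symbol. Trh, the precursor of thyrotropin-releasing hormone, had 5639.3 on the day 10 lesion array against 1394.0 contralaterally (4.01-fold). On day 37 it had 817.5 against 448.0 (Marginal), at least 1.80-fold apart, while a second Trh probe set was 1.46 higher on day 10 and 0.11 on day 37. Adcyap1, the precursor of PACAP, a peptide induced in injured neurons, was higher by 2.16 and 1.39 on day 10 on 2 probe sets and by 0.63 and 0.74 on day 37. Its brightest probe set differed by 0.44 and 0.32 on the 2 days, under the threshold. On day 37 the lesion side stood at 905.5 against 580.7 for the probe set that was 4236.4 against 938.2 on day 10. Avp, the vasopressin precursor, was called on day 37 instead. Its signal was 612.7 against 763.2 on day 10 and 625.5 against 299.5 (Marginal) on day 37, at least 2.03-fold apart, with the lesion side nearly level on the 2 days and the contralateral side at the bottom of the controls. Another tested Avp probe set differed by 0.18 on day 37.

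**Figure D3:**
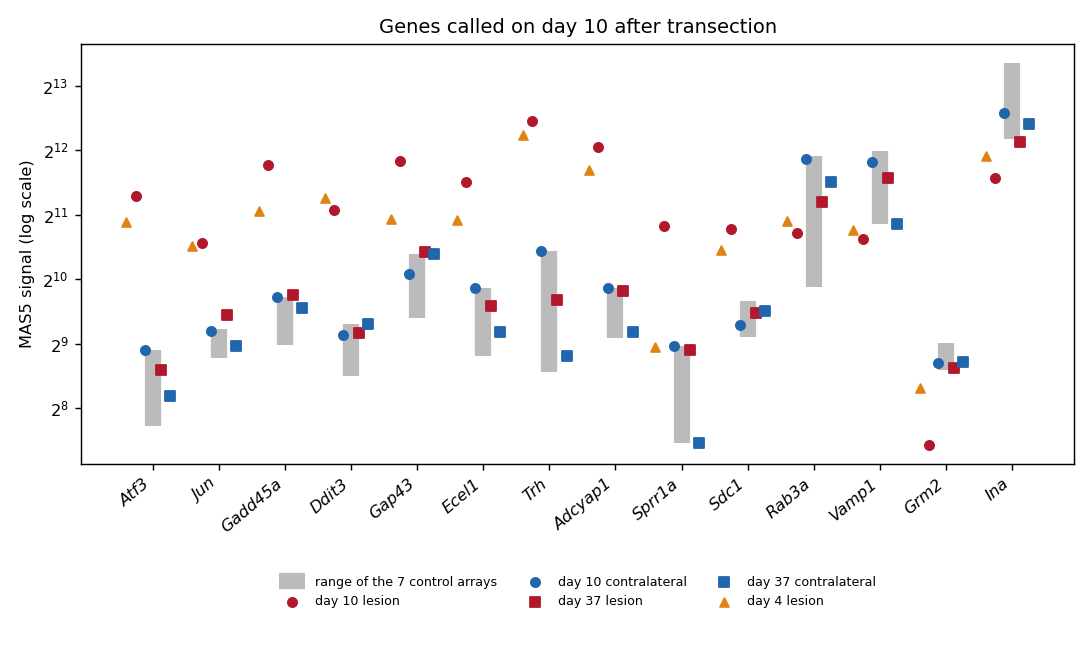
MAS5 signal (log scale) of 14 genes called on day 10 after transection: day 10 lesion (red circles) and contralateral (blue circles), day 37 lesion (red squares) and contralateral (blue squares), day 4 lesion (orange triangles) and the range of the 7 control arrays (grey bars). From Atf3 to Sdc1 the day 10 lesion value lies above every control, and on day 37 the lesion value is back at or near the grey bar.

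Other genes called higher on day 10 were lost as well. Qpct, the enzyme that forms the pyroglutamyl end of peptides such as TRH, had 989.7 against 98.2 (Absent) on day 10, at least 8.81-fold, and 151.0 against 148.3 on day 37. Sdc1, a cell surface proteoglycan, was 1753.6 against 624.2 on day 10 and 715.0 against 727.1 on day 37. Tmod1, which caps actin filaments, was 1340.3 against 386.2 (Absent) on day 10 and without a Present call on either side on day 37. Cebpb, a transcription factor of the injury and acute phase response, was 327.9 against 150.6 (Marginal) on day 10 and 211.7 against 173.4 on day 37.

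Of 31 measured genes of transmitter release 3 were called lower on day 10, Rims1, Rab3a and Vamp1, beside 0.811% of all genes. The receptor gene Grm2 was called lower too. Rims1, an organiser of the presynaptic active zone, had 67.7 (Absent) against 406.0, at least 5.04-fold lower on the lesion side, and on day 37 125.0 against 145.7. Its day 10 contralateral value was the highest of the 7 controls, whose median was 145.7. Rab3a, a GTPase of synaptic vesicles, was 1680.2 against 3727.5 on day 10 and 2340.4 against 2923.9 on day 37. Vamp1, a vesicle fusion protein, was 1577.3 against 3631.7 on day 10, and on day 37 the lesion side was the higher one, at 3031.3 against 1847.3. Grm2, a presynaptic glutamate receptor, was 173.6 against 414.8 on day 10 and nearly level on day 37, at 393.9 against 420.6. Rims1, Vamp1 and Grm2 lay below all 7 controls on the day 10 lesion array. Rab3a lay below all contralateral arrays (2648.0 to 3851.7) but above the healthy array, at 945.4. On the day 4 lesion arrays Rims1 had 102.0 after transection and 92.0 after saline, and Vamp1 1745.4 and 1670.7. Rab3a had 1908.1 and 2003.9 there, and Grm2 319.9 and 472.2. After lysolecithin the day 4 values of Rims1, Vamp1, Rab3a and Grm2 were 173.1, 3123.0, 4401.9 and 454.1.

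Among the other genes called lower on day 10, Ina, a neurofilament subunit, had 3036.4 against 6113.9 on day 10 and 4464.2 against 5457.5 on day 37 on 1 probe set. Cited2, a transcriptional co-regulator, was 265.0 (Absent) against 689.0 on day 10 and 475.3 against 493.4 on day 37. Lyz2, a lysozyme of macrophages and microglia, was 489.7 against 1356.0 on day 10, where the contralateral value was the highest of the 7 controls, and 738.5 against 971.8 on day 37. Pfkl, a glycolytic enzyme, was 881.1 (Marginal) against 1780.9 on day 10 and 1144.9 against 1071.4 on day 37. The 12 that were lower on day 10 and partly kept included Anxa1, an annexin with anti-inflammatory actions, which differed by -1.14 on day 10 and -0.50 on day 37. Its day 10 lesion signal was 56.0 (Absent), and a dimmer tested Anxa1 probe set differed by -0.41 on day 10 and -0.56 on day 37. Cd8b, a T cell co-receptor chain, had 168.6 (Absent) against 518.2 on day 10, where the contralateral value was the highest control, and Fbxl17l1 had 220.3 against 587.1, with the lesion value below all 7 controls. The partly kept ones also included Pcmt1, which repairs aged proteins, at -1.21 and -0.56, and Fgf7, a growth factor for epithelial cells, at -1.87 and -0.97. Fgf7 was Absent on the day 10 lesion array and on both arrays of day 37. Its day 10 contralateral value of 225.3 was the highest of the 7 controls, and the lesion value of 49.8 lay within the other 6 (10.7 to 148.3).

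Of the genes called on day 37, Vim, Tfrc and Pip4p1 had a smaller difference of the same sign on day 10, Gad1 had the opposite sign, and the others described next were late. Vim, the intermediate filament of reactive astrocytes and other non-neuronal cells, was 1394.7 on the day 37 lesion array against 3925.1 contralaterally (2.79-fold lower), after 1305.8 against 2065.3 on day 10. The 2 lesion values were close, and the day 37 contralateral value was the highest of the 7 controls. Tfrc, the transferrin receptor, was 140.0 against 349.5 on day 37 and 279.7 against 432.7 on day 10, and here the day 37 lesion value was below all controls (242.5 to 432.7). Hspb1, a small heat shock protein of injured neurons and of glia, was late, at 2001.3 against 4091.8 on day 37 and 3129.8 against 3334.3 on day 10. Its day 37 contralateral value was the highest of the 7 controls (1880.9 to 4091.8), and the lesion value lay within them. Of the 4 tested Hspb1 probe sets 2 were called lower on day 37, and the others differed by -0.83 and 0.30. Catalytic subunits of protein phosphatase 1 were late and lower too. Ppp1cb had 2355.5 against 4841.7 on day 37 and 4422.9 against 4250.8 on day 10. Ppp1cc had 1590.0 against 3325.6 on day 37 and 2507.7 against 2216.9 on day 10. The lowest control for both genes was the healthy array, at 301.2 for Ppp1cb and 447.8 for Ppp1cc. The contralateral arrays had 3593.5 to 4956.5 for Ppp1cb and 2150.0 to 3325.6 for Ppp1cc. Both day 37 lesion values were below all contralateral arrays. Another Ppp1cb probe set differed by -1.79 on day 37. In the lysolecithin pair of day 37 Ppp1cb differed by -0.91 and Ppp1cc by -0.26, and in the saline pair by 0.25 and 0.10.

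Kdr, the endothelial receptor of VEGF, was 132.6 against 284.9 on day 37 and 158.8 against 140.0 on day 10, with the contralateral value the highest of the controls. Timp1, an inhibitor of metalloproteinases, was 136.5 (Absent) against 401.1 on 1 probe set, and a brighter one differed by -0.43. Higher on day 37 was Pip4p1, a phosphatase of membrane phosphoinositides, at 2619.9 against 863.3 (a log2 difference of 1.58, and 0.75 on day 10). Its contralateral value was the lowest of the 7 controls, and the lesion value, above them all, differed from their median by 0.88. Also higher was Psap, the precursor of the saposins of lysosomes, at 7523.4 against 3592.4 on a probe set that was level on day 10 (5942.1 against 5792.3). Trappc3, a subunit of a vesicle tethering complex, was 1186.7 against 551.7 on day 37 and 1059.1 against 1032.5 on day 10. Its lesion value was below the control median of 1303.5, so the difference came from a contralateral array that was the lowest control. Tnrc6b, a protein of microRNA silencing, was 1397.1 against 659.9 on day 37, again with the contralateral value as the lowest control, and 1513.6 against 1260.4 on day 10. Gad1, which makes GABA, was 222.6 against 102.7 (Absent) on day 37 and Absent on both sides on day 10.

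**Figure D4:**
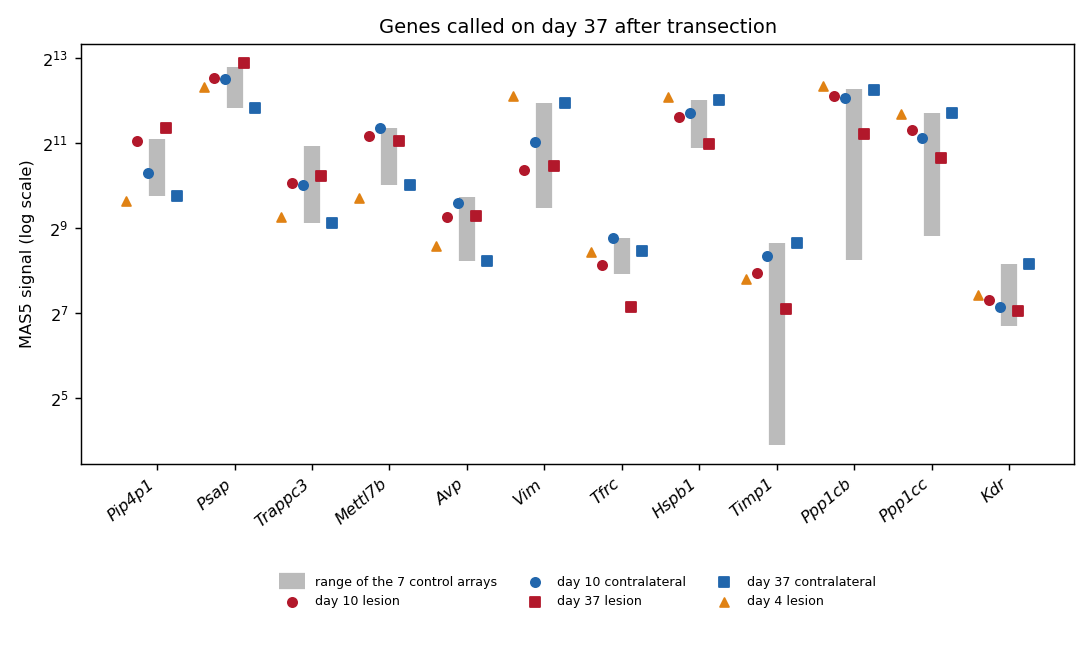
MAS5 signal (log scale) of 12 genes called on day 37 after transection, drawn as in the plot of day 10 genes. For most of them the day 37 lesion value (red square) lies inside the range of the 7 controls (grey bar) and the day 37 contralateral value (blue square) sits at its end, and for Vim, Hspb1, Ppp1cb, Pip4p1 and Mettl7b the day 4 lesion value (orange triangle) lies beyond that end.

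Each called difference was located by setting both arrays of its pair beside the other 6 controls. Of the 57 probe sets higher on day 10, the lesion array was above all 6 for 40, and the contralateral array was below all 6 for 24. Over all tested probe sets these positions held for 13.5% and 14.1%. The calls were chosen by the difference between these same arrays, so higher shares among them follow in part from that choice. The counts only describe which array of a pair stood apart. Of the 44 lower on day 10, the lesion array was below all 6 for 31 (18.1% of all tested) and the contralateral array above all 6 for 16 (12%). On day 37 the contralateral array was more often the one outside the controls. Of the 21 higher, the lesion array was above the other controls for 5 (10.1% of all tested) and the contralateral array below them for 16 (14.6%). Of the 28 lower, the lesion array was below for 10 (9.59%) and the contralateral array above for 18 (14.4%).

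When the median of the other 6 controls replaced the contralateral array, an alternative chosen after seeing the data, 28 of the 57 higher and 12 of the 44 lower calls of day 10 were called again. Of the 21 higher calls of day 37 3 were called again, and of the 28 lower calls 2. The lesion array here is the one that took part in choosing the calls, so this is no independent check. Among the 28 were Atf3, Jun, Gadd45a, Ddit3, Gap43, Ecel1, Trh, Adcyap1, Sdc1, Qpct and the persistent probe set of Sprr1a. The day 37 calls that held were Ints13 and Map2k5 among named genes, and 3 probe sets with no single symbol. The median of the other 6 controls gave 37 higher (0.838%) and 39 lower (0.884%) calls in all on day 10, and 12 (0.272%) and 5 (0.113%) on day 37.

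The day 4 lesion array, which had no contralateral partner and took no part in choosing the calls, was set against the same controls. Of the 57 probe sets higher on day 10, 48 lay above the control median on day 4 and 24 were at least 2-fold above it, a size reached by 1.20% of all tested. Atf3 had 1897.9 on that array, Ddit3 2457.7, Trh 4829.2 and Gap43 1961.7, each above all 7 controls, and Qpct 168.9. On the day 4 lesion arrays of the other interventions, 11 of the 57 were at least 2-fold above the control median after lysolecithin (0.725% of all tested) and 2 after saline (0.227%), while 46 and 40 lay above it. Of the 44 lower on day 10, 32 lay below the control median on the transection array of day 4 and 2 were at least 2-fold below it (1.29% of all tested). On the saline array of day 4 the counts for these 44 were 30 and 2, with a median of -0.30 beside -0.19 after transection, and on the lysolecithin array 18 and 0. For the calls of day 37 the day 4 array pointed the other way. It was on the called side for 6 of the 21 higher and 3 of the 28 lower, and 2-fold on that side for 0 of either (1.79% and 1.43% of all tested). The day 4 arrays of the other interventions lay the same way: the lysolecithin array was on the called side for 5 of the 21 and 4 of the 28, and the saline array for 4 of the 21 and 10 of the 28. Vim, for example, was 4369.7 on day 4, and Mettl7b, a methyltransferase-like protein called higher on day 37 at 2098.0 against 1038.0 (Absent), was 836.5. The beta-actin 3′/5′ ratio was 1.42 on the transection array of day 4, 1.44 on the lysolecithin one and 1.68 on the saline one, all nearer the 1.53 of the day 37 contralateral array than the 1.07 of the day 37 lesion array. The part of RNA quality in these differences was not tested.

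The pairs of the other interventions were read for the same probe sets. Of the 57, 53 were higher on the lesion side in the lysolecithin pair and 12 at least 2-fold (1.22% of all tested). In the saline pair 39 were higher and 0 at least 2-fold (0.068% of all tested). Of the 44 lower on day 10, 28 were lower in the lysolecithin pair and 3 at least 2-fold (0.974% of all tested), and 25 were lower in the saline pair and 2 at least 2-fold (0.68%). On day 37, 0 of the 21 higher calls were 2-fold higher in the lysolecithin pair (0.748% of all tested) or the saline pair (1.52%). Of the 28 lower calls, 3 were 2-fold lower in the lysolecithin pair (1.09%) and 1 in the saline pair (0.567%). In the lysolecithin pair of day 10 Atf3 differed by 1.5, Ecel1 by 1.40, Trh by 1.16 and Ddit3 by 1.09, and in the saline pair by 0.39, 0.35, 0.66 and 0.21.

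Gene lists were read by their brightest probe set for each gene, among 2713 genes of which 33 were called higher (1.22%) and 22 lower (0.811%) on day 10, and 10 (0.369%) and 11 (0.405%) on day 37. The median gene differed by -0.03 on day 10 and 0.01 on day 37. Of 29 measured axon injury and regeneration genes, 5 were called higher on day 10 (Atf3, Gadd45a, Gap43, Ecel1 and Jun) and 1 lower (Anxa1). The list's median was 0.18, with 16 of 29 above 0. On day 37 none was called higher and 1 lower (Hspb1), and the median was 0.06. Members that did not reach the threshold on day 10 included Anxa2 (0.98), the receptor Ret (0.82) and Basp1 (0.52), and on the other side Nrn1 (-0.87) and Ntrk2 (-0.60). On day 37 these 5 stood at -0.25, 0.31, -0.23, 0.14 and 0.23.

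Of 19 stress and apoptosis genes 3 were called higher on day 10, Eif2ak3, Gadd45a and Ddit3, with a median of 0.16, and 0 on day 37, with a median of -0.10. Of the chaperones of the endoplasmic reticulum, Hspa5 differed by 0.49 on day 10 and -0.20 on day 37 on its brightest probe set, and Hsp90b1 by -0.04 and 0.02. A dim Hspa5 probe set was called on both days in opposite directions, at 1.58 on day 10 and -1.60 on day 37. Of 18 heat shock genes 2 were called higher on day 10, Cct3 and Dnaja1, both with the lowest control signal on the contralateral array, and 14 lay below 0 on day 37 (median -0.19). Of 19 immediate early genes Jun and Cebpb were called higher on day 10, while the median was -0.19. Fos, the other classic partner in AP-1, differed by -0.30 on day 10 and 0.20 on day 37.

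Genes of synapses and excitability had medians below 0 on day 10 and near 0 on day 37. Over all 2713 genes, 1443 were below 0 on day 10 and 1309 on day 37. Of 31 release genes 26 were below 0 on day 10, with 3 called lower and a median of -0.30, and on day 37 13 were below 0 with a median of 0.01. Nsf, which recycles fusion complexes, differed by -0.90 and then -0.10, Vamp2 by -0.80 and -0.03, and Cplx1 by -0.56 and -0.06. Syt4, an exception in this list, differed by 0.90 and 0.19. Of 33 transmitter receptors 22 were below 0 on day 10 (median -0.24), and on day 37 19 were (median -0.03), with Grm2 the 1 call. Of 25 ion channels 20 were below 0 on day 10 and 14 on day 37 (medians -0.24 and -0.03), with no call on either day. The neurofilament genes Nefl, Nefm and Nefh differed by -0.51, -0.51 and -0.60 on day 10 and by -0.04, -0.06 and 0.10 on day 37.

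The summed signal of the 31 release genes was 87019.5 on the day 10 lesion array against 111009.5 contralaterally, and the other 6 controls ranged from 97888.3 to 116467.3. On day 37 it was 100236.7 against 102900.7, so that both sides were within the control range. The 7 projection neuron markers summed to 64262.7 against 73930.0 on day 10, where the other 6 controls ranged from 64847.7 to 85126.0, and to 70147.8 against 75334.4 on day 37. Both lesion sums of day 10 were below the lowest control. By medians of single genes, the neuron markers differed by -0.38 (5 of 7 below 0) and the release genes by -0.30. The neuron markers were drawn from Slc17a6, Slc17a7, Snap25, Syt1, Nefl, Nefm, Nefh, Eno2, Thy1 and Uchl1. That list holds neurofilament genes and genes of transmitter release, which a cut can lower in surviving neurons. It therefore cannot serve as a measure of neuron number beside the release genes. Whether fewer neurons had a part in this was not tested.

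**Figure D5:**
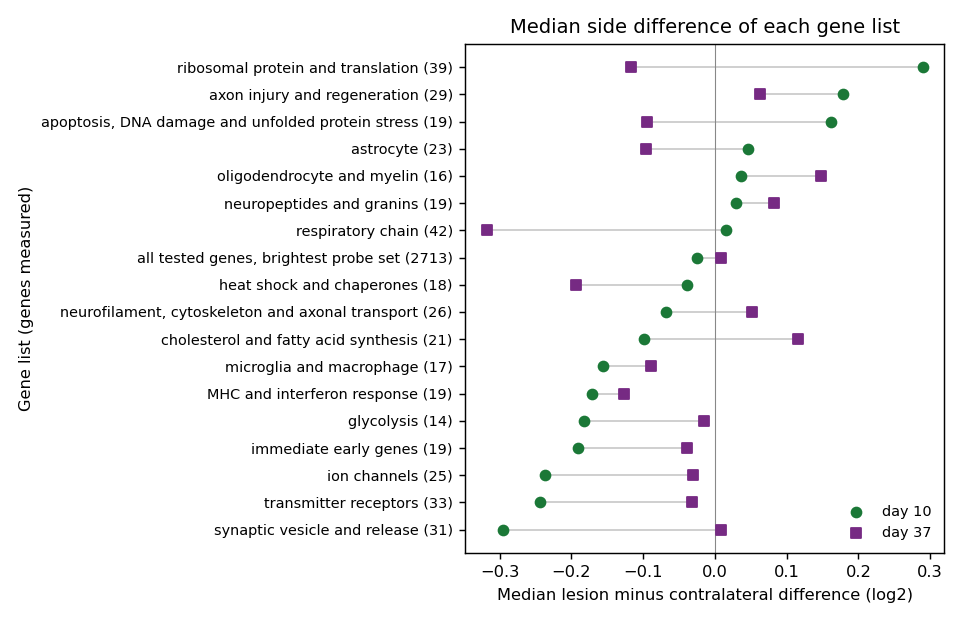
Median lesion minus contralateral difference (log2) of each gene list with at least 14 measured genes, on day 10 (green circles) and day 37 (purple squares) after transection. Release, receptor and channel genes lie between -0.24 and -0.30 on day 10 and close to 0 on day 37, and respiratory chain genes lie at 0.02 on day 10 and -0.32 on day 37.

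Lists with many small differences of the same sign also stood out. Of 39 ribosomal and translation genes 37 were above 0 on day 10 (median 0.29), and none was called. Their sum was 304301.5 on the day 10 lesion array, above the other 6 controls (234958.7 to 284766.1), against 246625.1 contralaterally. On day 37, 29 of the 39 were below 0 (median -0.12). Of 42 respiratory chain genes 19 were below 0 on day 10 (median 0.02) and 37 on day 37 (median -0.32), with no call by the brightest probe set. Here the day 37 lesion sum of 232071.2 lay inside the range of the other 6 controls (215480.9 to 267459.0), though above only the transection day 10 contralateral array, since the others started at 239343.2. The contralateral sum of 291445.6 was above that range. That contralateral array is the one with the beta-actin ratio of 1.53, with a GAPDH ratio of 1.07, and their part in this list was not tested.

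Among markers of other cells, those of glia had few calls. Of 17 microglia and macrophage genes 1 (Lyz2) was called lower on day 10 and 0 on day 37, with medians of -0.16 and -0.09. Their sum was 45910.3 against 41535.2 on day 10 and 38313.9 against 43226.7 on day 37, inside the range of the other 6 controls (28394.7 to 48899.7) on all 4 arrays. Of 23 astrocyte genes Vim was called lower on day 37, with list medians of 0.05 on day 10 and -0.10 on day 37. The 16 oligodendrocyte and myelin genes had medians of 0.04 and 0.15 and no call. Of the 10 short lists of cell type markers, 8 had no call on either day. The 5 markers of cerebellar cells summed to 4237.9 on the day 10 lesion array against 6244.3 contralaterally, below the other 6 controls (6151.9 to 6952.3), and to 7179.1 against 6380.1 on day 37. Of these 5, Calb2, a calcium-binding protein, carried most of the signal, at 2931.9 against 4919.3 on day 10. Of 11 genes of meninges and fibroblasts 9 were below 0 on day 10 (median -0.29), with sums of 10151.4 against 10148.5, both below the other 6 controls (10813.6 to 16191.5). The part of these cells in the other differences was not tested. The marker lists with a call held Kdr (endothelium, lower on day 37) and Camk2n1 (a forebrain neuron marker, lower on day 10). Over all 28 lists 16 had no call on either day.

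The side difference over both transection pairs was fitted with limma on the 12 arrays of the 6 pairs, with the pair as a block. This fit asks for a difference that holds on both days against the spread between the 2 days of each intervention. No probe set passed an adjusted p of 0.05 (0 of 4413), and 287 (6.50%) had an unadjusted p under that threshold. The smallest limma adjusted p was 0.0992, shared by the persistent Sprr1a probe set, at a mean difference of 1.60 (SE 0.23, higher on 2 of 2 days). Jun, at 0.90 (SE 0.22), had a limma adjusted p of 0.478, Trh, at 1.42 (SE 0.33), of 0.466 and Atf3, at 1.37 (SE 0.37), of 0.582. Without the pair as a block 2 probe sets passed, both lower, Cyp26b1 (-1.61, limma adjusted p 0.0335) and Mios (-1.69, limma adjusted p 0.0335).

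With either transection pair left out, 1 transection pair remained, and it had no spread of its own. The fit then assumes that this pair varies as the other interventions do, so only sizes are given. The SD of the differences was largest in the day 10 transection pair, at 0.44. Its log2 differences were 3.14 for Qpct, 2.97 for Eif2ak3, 2.63 and 2.02 for 2 probe sets of Gadd45a and 2.35 for Atf3. Those of Ddit3, Gap43 and Supt5h were 1.91, 1.74 and 1.73. All of these probe sets were picked by the fit left with this 1 pair, so the pick is no support for them. A second Jun probe set, at 2.49, and Bmal1, at 2.33, were not picked by it. For Eif2ak3 the contralateral value of 105.8 was the lowest of the controls. The test of the transection side difference minus the saline side difference gave 0 probe sets in limma, with a smallest adjusted p of 0.267 and 144 (3.26%) with an unadjusted p under 0.05. No difference was therefore shown to be particular to transection over both days, and the difference between days was not tested, because each day had 1 pair.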

How the data were processed

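Total RNA of the pontine nuclei (Trizol) was biotin-labelled and put on Affymetrix rat arrays (1 for each group), per the labels' protocols. The deposited signal is a linear intensity that the authors scaled so that the arrays share a trimmed mean, with MAS5 named in the submitters' processing notes. Per the file headers each signal comes with its call and a detection p-value. The p-values deposited by the authors were read but not thresholded again, and the calls were used as given. The deposited series value table, log2-like values for 7773 probe sets with scaling not stated, served as an alternative. Scanner image files were not used here.

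Of 8799 probe sets, 6283 had 1 symbol in the platform annotation, 280 several and 2236 none. Present on at least 3 arrays were 4413 (3636 with 1 symbol). Differences used log2(signal + 16). Of the 57 probe sets higher on day 10, 50 had 1 symbol (43 genes), 2 several and 5 none. Of the 44 lower these were 32, 1 and 11, of the 21 higher on day 37 15, 1 and 5, and of the 28 lower 21, 2 and 5. The dimmer array lacked a Present call for 16, 25, 10 and 5 of them, where a fold is given as "at least". Within 0.1 above and below the log2 threshold of 1 lay 15 and 20 probe sets for day 10 higher, 14 and 23 for day 10 lower, 14 and 6 for day 37 higher, and 12 and 11 for day 37 lower.

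Genes named are drawn, by rule, from the 12 highest and 12 lowest of each day by brightest probe set, Present and over a signal of 200 on the brighter array, those called on both days, those past 0.05 in the fit, up to 4 called members of each list in each direction, and any member of the axon injury list, and not all that the rule picks are described. Genes and probe sets outside the rule were chosen after their values were seen. The genes were Ina, Cited2, Sdc1, Pcmt1, Arhgef4, Akr1c14, Timp1, Psap, Map2k5, Supt5h, Cyp26b1, Mios, Hnrnpa1, Lamp2 and Polr1d. The same holds for the other probe sets of Jun, Trh, Adcyap1, Gadd45a, Hspb1 and Ppp1cb, and for members of other lists given with values. Members and lists were chosen with earlier results of these data known.

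The fit used limma 3.58.1 in R 4.3.3 (intensity trend, Benjamini-Hochberg over 4413 probe sets, 3 residual degrees of freedom) and was tested on simulated data. Other steps ran in Python 3.11.15 (pandas 2.3.3, numpy 2.4.6), and matplotlib 3.10.9 drew the plots. A pair is the lesion and contralateral array of 1 intervention and day, since the labels name the contralateral nuclei as controls. Alternatives covered the offset, the filter, the Present rule, quantile normalization, the value table, a 1.5-fold threshold, the block, the trend and each pair left out. The number of arrays limits the precision.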

Additional observations from a re-analysis of the deposited data

Results flagged for a closer look

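7 named probe sets were called on at least 1 day and differed by at least 0.5 the other way on the other day, where the Gadd45a and Hspa5 ones were called too, lesion minus contralateral after transection. With 1 pair a day, the difference between the days was not tested. For Gadd45a (rc_AI070295_at) the log2 difference was 2.26 on day 10 and -1.33 on day 37, while its 3 other tested probe sets were between -0.41 and 0.24 on day 37. Vamp1 differed by -1.20 on day 10 and 0.71 on day 37, Adora2a, an adenosine receptor, by -1.19 and 0.80, and Arhgef4, a guanine nucleotide exchange factor, by -1.03 and 0.65. On day 37 the contralateral values of Vamp1 (1847.3), Adora2a (329.0) and Arhgef4 (281.0) were the lowest of the 7 controls. Gad1 differed by -1.35 and 1.01 (Absent on both sides on day 10), Akr1c14, an aldo-keto reductase, by 0.90 (Absent on both sides) and -1.11, and Hspa5 (S63521_r_at) by 1.58 and -1.60, from signals of 32.6 against 0.3 on day 10 and 7.9 against 56.4 on day 37.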

How the results depend on the processing

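Counts of calls moved by more than 1.5 times under these settings. With an offset of 64, day 10 lower was 20, day 37 higher 9 and lower 13, lost 50 and late 14. With an offset of 1, persistent was 7. With a Present call on both arrays, day 10 lower was 19, day 37 higher 11, persistent 0 and lost 48. In the value table, day 10 higher was 108, day 37 lower 48, lost 128 and late 49. At 1.5-fold, day 10 was 233 higher and 221 lower, day 37 126 and 142, persistent 37, lost 296 and late 128. With quantile normalization day 10 lower was 28, and 71.1% of the day 10 calls were higher, against 56.4% in the main setting. Against the median of the other 6 controls, added after seeing the data, day 10 higher was 37, day 37 higher 12 and lower 5. Without a replicate block the limma fit called 2. Leaving out 1 pair in turn gave 0 to 8 (8 without the transection day 37 pair), and 0 to 1 for transection minus saline. The calls with a pair left out came from fits with 1 transection or saline pair, which had no spread of its own. They are therefore no support for a side difference. For transection minus saline they were Eif2ak3 (log2 size 3.11) without the transection day 37 pair and Kctd13 (5.08) without the saline day 10 pair. For Eif2ak3 the day 10 contralateral value of 105.8 was the lowest of the 7 controls. Against the median of the 7 controls, Trappc3 on day 37 reversed to -0.13 and Dnaja1 on day 10 to -0.0493, and another Hspb1 probe set gave 0.30 on day 37. The causes were not tested. Of 47 called values of named genes, 47 kept direction and size within the spread between pairs with an offset of 1, 45 with 64, 46 with quantile normalization, 40 in the value table and 21 against the median of the 7 controls. Of 16 with another tested probe set, 4 did, 11 moved and 1 reversed. Depth per array is not recoverable from the signals, and dim genes are limited by the background.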

Other observations

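Some injury genes were themselves high on the contralateral array of day 10, though no more often than a share near the background. For 9 of the 57 probe sets called higher on day 10, the contralateral array was itself above the other 6 controls, a position held by 12% of all tested probe sets. These 9 stood for Atf3, Gadd45a, Ecel1, Trh, Adcyap1 and Sprr1a. Atf3 had 480.9 on that array and Trh 1394.0, and the control medians were 291.8 and 518.6. The folds within the day 10 pair are smaller for these genes than against the other controls. On day 37 the contralateral array was above the other 6 controls for 0 of the 21 probe sets called higher. This was noticed after the values were seen and was not tested.

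A run of expressed sequence tags took up a share of the day 10 calls. Probe sets whose names start with rc_AA799 or rc_AA800 were 292 of the 4413 tested (6.62%) and 13 of the 57 called higher on day 10, with 0 of the 44 called lower. Among them were Rbm39, Cct3, Dnaja1, Hnrnpa1, Lamp2 and Polr1d. Of these 13, the contralateral array was below the other 6 controls for 12 and the lesion array above them for 5. Of the other 44, these counts were 12 and 35. The median difference of the 292 was 0.13 on day 10 and 0.12 on day 37, beside -0.04 and -0.01 for the rest. Without them day 10 had 44 higher calls and 44 lower.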
